A study of Mus musculus with 6 samples.

Results

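Neuronal cytoskeleton, RNA-binding and identity genes were followed in differentiated mouse cortical neural progenitor cells. The list holds 46 genes: tubulins, microtubule-binding proteins, growth cone proteins, kinesins, RNA-binding proteins, adhesion and axon domain proteins, secretory granule proteins, transcription factors and the ubiquitin hydrolase Uchl1. A gene was kept as a member when its Ensembl identifier matched the list and its reads summed to at least 30 over the 6 libraries, which held for 43 of the 46, out of 39179 genes in the count table. Of these 43, 41 had enough reads in enough libraries to be tested.

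The progenitors came from cerebral cortex of CD1 mice at embryonic day 13.5 and were then differentiated in culture. Progenitors of 1 group stably expressed green fluorescent protein (GFP, 3 libraries). Those of the other stably expressed G392E neuroserpin (G392E-NS, 3 libraries), a mutant form of the neuronal protease inhibitor that forms polymers in the endoplasmic reticulum. All 6 libraries therefore came from cells labelled as stably expressing an introduced protein, and cells expressing normal neuroserpin were not analysed here. The labels do not give the promoter, the number of independent lines or the length of differentiation. Nor do they say whether the 3 replicates came from separate cultures, so p-values measure the spread between these libraries, which may be technical.

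Newborn neurons assemble a labile microtubule network. Doublecortin (Dcx) and the stathmins (Stmn1 to Stmn4) regulate its growth, while the Elavl proteins stabilise and splice neuronal transcripts. As the axon matures, tau (Mapt) and the Map1 and Map2 proteins bundle microtubules, kinesins carry cargo along them, and ankyrin-G (Ank3) with neurofascin (Nfasc) and the contactins organises the axon initial segment and the node of Ranvier. Many of these genes are not restricted to neurons: glial precursors and oligodendrocytes also make transcripts such as Ncam1, Nfasc, Cntn1 and Tubb4a.

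The β-tubulins are printed first, because Tubb4a rose in G392E-NS cells and because reads of close paralogs can be misassigned. The 75 coding bases below, bases 1231 to 1305 counted from the A of the start codon, lie near the end of the coding sequence (GRCm38, GENCODE M21 transcripts). Capitals mark bases that differ from Tubb2b at the same position.
Tubb2a, chr13:34074501-34074575, minus strand: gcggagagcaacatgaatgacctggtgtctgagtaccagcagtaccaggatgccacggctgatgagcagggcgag
Tubb2b, chr13:34127504-34127578, minus strand: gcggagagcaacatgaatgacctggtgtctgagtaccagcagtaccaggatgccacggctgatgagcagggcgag
Tubb3, chr8:123421560-123421634, plus strand: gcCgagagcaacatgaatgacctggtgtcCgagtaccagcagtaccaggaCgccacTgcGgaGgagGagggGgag
Tubb4a, chr17:57080720-57080794, minus strand: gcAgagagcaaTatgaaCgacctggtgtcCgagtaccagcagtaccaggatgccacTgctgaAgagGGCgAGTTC
Tubb2a had 0 differences from Tubb2b in this stretch, Tubb3 had 8 and Tubb4a had 14. Bases were compared position by position, without gaps. The Tubb4a coding sequence is shorter, with 1335 bases against 1338 for Tubb2b. The run of capitals at its end can therefore reflect a shift of position, and its 14 is not a count of changed bases. Over the first 1290 coding bases Tubb2a was 96.6% identical to Tubb2b, against 85.0% for Tubb3 and 84.9% for Tubb4a. Of all 50-base words in its transcript, Tubb2a shared 45.6% with Tubb2b, so how reads were divided between these 2 genes is uncertain. Tubb4a shared 0.184% of its words with Tubb2b and the same share with Tubb2a. Tubb3 shared 0 words with Tubb2a, Tubb2b or Tubb4a. Only these 4 members were compared. The β-tubulins Tubb4b and Tubb5, which averaged 39.9 and 757 CPM in the GFP libraries, were not. How many words Tubb4a shares with them is therefore not known.

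The libraries held 15507487 to 24835835 counted reads, and 18573 to 19582 genes had at least 1 read. Levels are given as library-size-scaled counts (CPM, with trimmed mean of M values factors) or, to compare genes, as CPM per kilobase of exon (RPKM). The 9 neuron-defining markers cover synapses, neurofilaments and transmitter use. Their summed level was 190 to 229 CPM in the GFP and 201 to 267 CPM in the G392E-NS libraries. Gad1, which makes the transmitter GABA, averaged 106 CPM in the GFP libraries, of a mean sum of 205 CPM. The vesicular glutamate transporter genes Slc17a7 and Slc17a6 had 4 and 1 reads over the 6 libraries. Summed astrocyte markers did not overlap between the groups. They measured 4172 to 6338 CPM in the GFP and 10049 to 17135 CPM in the G392E-NS libraries, and 3 of 10 rose (Slc1a2, Aldoc and Aldh1l1). Sums of different lists hold different genes and do not compare numbers of cells. Summed oligodendrocyte lineage markers overlapped, at 3220 to 3901 CPM against 2762 to 5051 CPM, and 2 of 8 rose (Pdgfra and Mog). Among 8 progenitor markers Prom1 rose and Nes fell. Summed microglial markers stayed at or below 0.351 CPM, and summed endothelial and mural markers at or below 4.45 CPM. The part of these other cell types in the results was not tested. In bulk RNA, fewer cells of a type and less RNA per cell cannot be told apart.

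Xist and the neuroserpin gene were looked at as checks of the cultures, and were picked after their values were seen. Xist, expressed from the inactive X chromosome of female cells, averaged 1.51 ± 0.0831 CPM in the GFP and 1494 ± 345 CPM in the G392E-NS libraries (SD, n = 3 each). In Xist all GFP libraries lay far below all G392E-NS libraries. For every member, the construct therefore cannot be told apart from a difference between the cultures in sex or X chromosome state. The members Dcx and L1cam lie on the X chromosome, and the part of the X chromosome in their values was not tested. The neuroserpin gene Serpini1 averaged 4.69 ± 0.483 CPM in the GFP and 5.72 ± 0.924 CPM in the G392E-NS libraries (SD, n = 3 each; log2 fold change 0.29 ± 0.19 (SE), edgeR adjusted p = 0.419). This count does not tell the mouse gene from the expressed construct, whose species the labels do not give.

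Per length, tubulins and Map2 led the list. Tubb2b, a tubulin of migrating neurons and their progenitors, stood highest at 786 ± 95.4 RPKM in GFP libraries (SD, n = 3), above Tubb2a at 175 ± 20.4 and Map2 at 167 ± 7.75. Tubb2a and Map2 did not differ beyond their spread. Dpysl3, a collapsin response mediator protein of the growth cone, followed at 129 ± 9.33 RPKM. Stmn3, Kif1a, Cntn1, Tubb3, Scg3 and Uchl1 lay between 51.5 and 70.6 RPKM, and Dcx and Mapt at 40.4 and 34.9 RPKM. At the other end Thy1 averaged 0.318 RPKM in GFP libraries, Tbr1 0.122 RPKM and Ank3 0.108 RPKM. Ank3 has 34838 bases of annotated exon in all, more than any 1 transcript holds, so its level per length is understated.

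**Figure D1:**
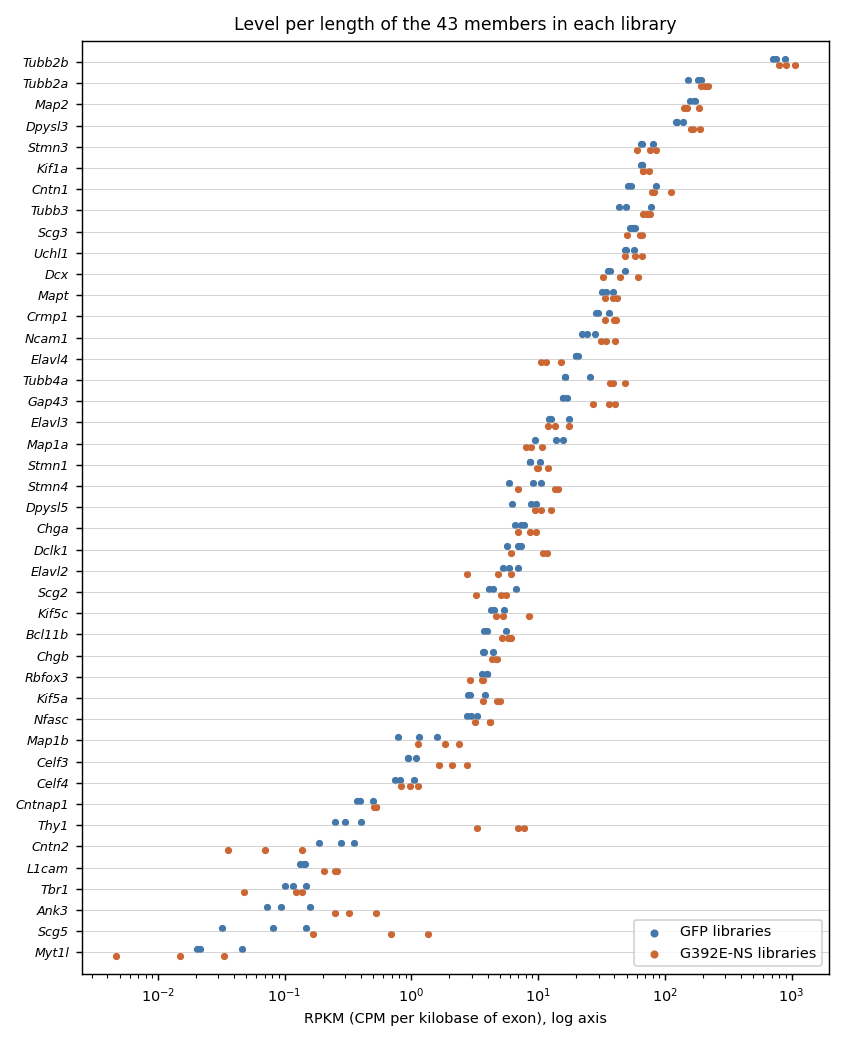
Level of each of the 43 members in each library, as RPKM on a log axis, with 1 point per library and the genes ordered by level. Tubb2b stood highest, and Thy1 showed the widest gap between the 3 GFP and the 3 G392E-NS libraries.

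Few members changed. With edgeR's quasi-likelihood test and Benjamini-Hochberg adjustment over 13775 genes, 5 of 41 members rose in G392E-NS cells (12.2%, against 4.79% of all genes tested): Thy1, Ank3, Celf3, Gap43 and Tubb4a. Elavl4 fell, 1 of 41 members (2.44%, against 1.36% of all genes tested). The other 35 did not pass the test. The 3 libraries of each group lay apart from those of the other in 11 members that were higher (26.8%, against 15.7% of all genes tested) and in 2 that were lower (4.88%, against 12.9% of all genes tested). The fitted difference was above 0 in 33 of 41 members and below 0 in 8, with a median log2 fold change of 0.24 against -0.00 over all genes tested.

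**Figure D2:**
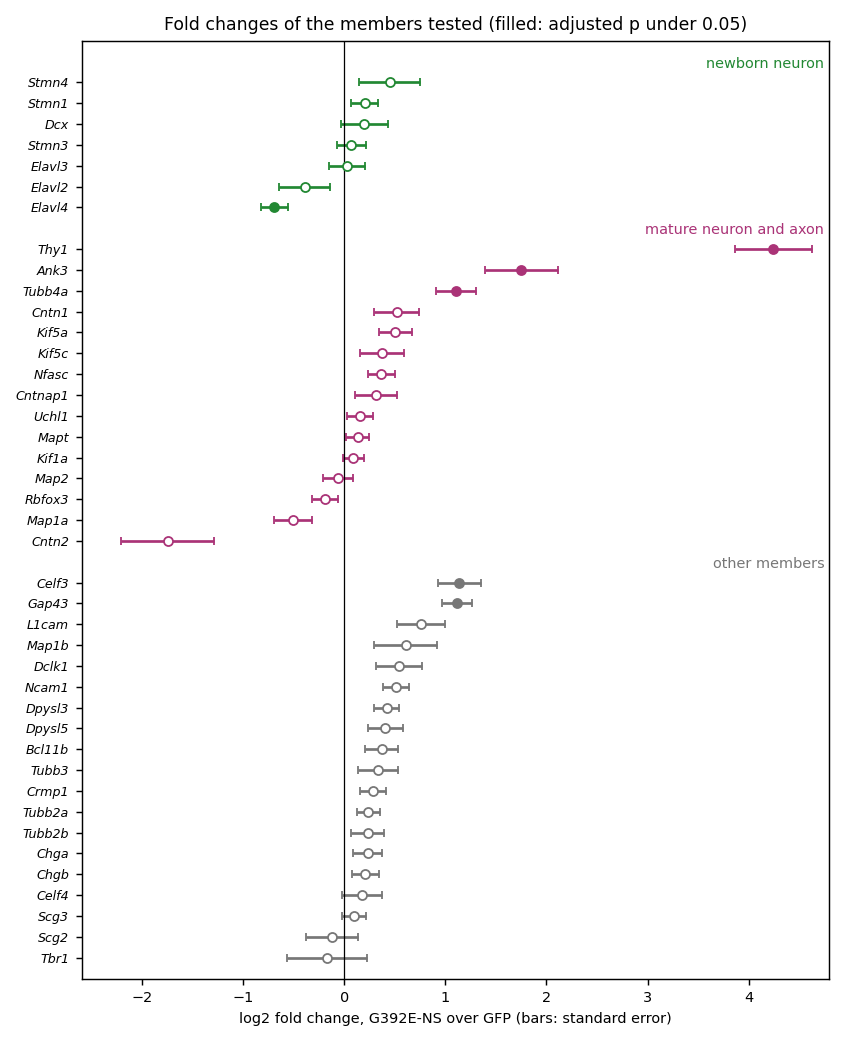
Fitted log2 fold change of G392E-NS over GFP for the 41 members tested, with bars for the standard error and filled points for an adjusted p under 0.05. Thy1 stands far to the right at 4.24, Elavl4 is the filled point on the left at -0.70, and most open points lie between 0 and 0.6.

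Thy1, a GPI-anchored surface glycoprotein of mature axons that is also made by fibroblasts and other mesenchymal cells, changed most (GRCm38 chr9:44043384-44048579). Its level was 1.21, 0.753 and 0.898 CPM in GFP libraries and 9.90, 23.3 and 20.9 CPM in the G392E-NS libraries. Every G392E-NS library lay above every GFP library, and the lowest of them, replicate 1, was still well above the GFP range. The means were 0.954 ± 0.233 and 18.0 ± 7.15 CPM (SD, n = 3 each), a log2 fold change of 4.24 ± 0.38 (SE; edgeR adjusted p = 0.000896). Among 6 mesenchymal markers only Twist1 had enough reads to be tested; it rose, with 0 reads in each GFP library and 34, 45 and 50 reads in the G392E-NS libraries. Twist1 made up nearly all of the summed mesenchymal level in the G392E-NS libraries. It measured 1.41, 1.91 and 3.26 CPM there, of sums of 1.41, 2.16 and 3.33 CPM. In the GFP libraries the sum was 0.0428 to 0.115 CPM. Col1a1 stayed at or below 0.212 CPM, and Lum and Dcn had 0 reads. The part of mesenchymal cells in the Thy1 difference was not tested.

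Ank3 encodes ankyrin-G, the scaffold that assembles the axon initial segment (chr10:69398773-70027438). It measured 2.53, 3.26 and 5.52 CPM in the GFP and 18.5, 11.2 and 8.74 CPM in the G392E-NS libraries. The groups did not overlap, though GFP replicate 3 and G392E-NS replicate 3 came nearest to each other. Its log2 fold change was 1.75 ± 0.36 (SE; edgeR adjusted p = 0.0296). The edgeR adjusted p was 0.115 and 0.111 when GFP replicate 1 or 2 was omitted, and 0.0507 without G392E-NS replicate 2.

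The other adhesion and axon domain proteins did not pass the test. Ncam1, the neural cell adhesion molecule, averaged 215 ± 25.2 CPM in the GFP and 306 ± 38.0 CPM in the G392E-NS libraries without overlap (SD, n = 3 each; log2 fold change 0.51 ± 0.13 (SE), edgeR adjusted p = 0.0582). L1cam, an adhesion molecule of growing axons, had a log2 fold change of 0.76 ± 0.23 (SE; edgeR adjusted p = 0.104) and also did not overlap, at about 1 CPM in GFP. Cntnap1, a paranodal partner of the contactins, separated the groups too, but with a log2 fold change of only 0.31 ± 0.21 (SE). Cntn1 and Nfasc had values of 0.52 ± 0.22 and 0.36 ± 0.13 (SE), with adjusted p of 0.216 and 0.152. Cntn2, the contactin TAG-1 of outgrowing axons, ran the other way. It measured 1.73, 3.31 and 2.61 CPM in the GFP and 0.333, 1.27 and 0.652 CPM in the G392E-NS libraries, with a log2 fold change of -1.75 ± 0.46 (SE; edgeR adjusted p = 0.0660). Without the low-count filter both Cntn2 and Ncam1 passed (edgeR adjusted p of 0.00565 and 0.0240). Cntn2 passed with DESeq2 (adjusted p = 0.00980) and without G392E-NS replicate 2 (edgeR adjusted p = 0.0317), and Ncam1 passed with DESeq2 (adjusted p = 0.0101) and without G392E-NS replicate 1 (edgeR adjusted p = 0.0433). Over the 8 genes of this role 2 rose, 0 fell in edgeR (1 at an unadjusted p under 0.05, 1 with DESeq2 and 0 with limma-voom), and the median log2 fold change was 0.51. Exons of Cntnap1, L1cam and Ncam1 overlap those of neighbouring genes, and the labels do not give the strand setting of the counting.

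Gap43 was the growth cone protein that rose (chr16:42248442-42340651). This membrane-bound protein accompanies axon outgrowth. It measured 24.0, 23.9 and 25.7 CPM in the GFP and 61.9, 41.7 and 55.5 CPM in the G392E-NS libraries. The GFP libraries lay within 2 CPM of each other and below all G392E-NS libraries. The means were 24.5 ± 0.990 and 53.0 ± 10.3 CPM (SD, n = 3 each), a log2 fold change of 1.11 ± 0.15 (SE; edgeR adjusted p = 0.00585). Gap43 and Thy1 kept their call in all 14 alternative analyses, with log2 fold changes of 0.97 to 1.26 for Gap43 and 4.02 to 4.52 for Thy1. The collapsin response mediators Dpysl3, Dpysl5 and Crmp1, which link guidance cues to microtubules, had log2 fold changes of 0.42 ± 0.12, 0.41 ± 0.17 and 0.29 ± 0.13 (SE). None of them passed (edgeR adjusted p of 0.0868, 0.213 and 0.237), although Dpysl3 did with DESeq2 (adjusted p = 0.0103) and its groups did not overlap. The median of the 4 growth cone genes was 0.41.

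**Figure D3:**
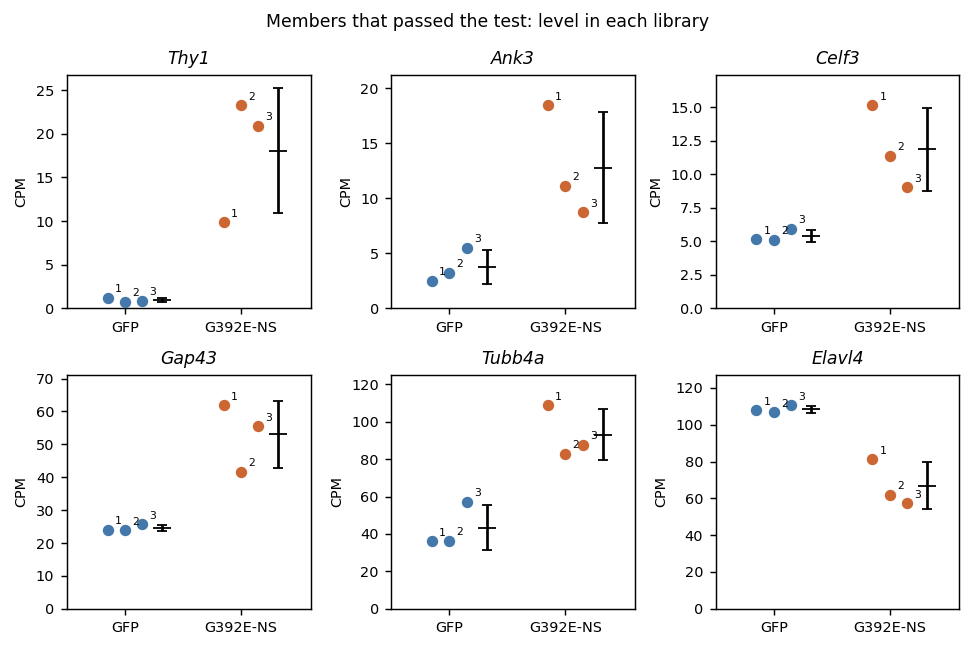
Level in CPM of the 6 members that passed the test, with 1 point per library, 3 per group, and each vertical axis starting at 0. The G392E-NS points lie above the GFP points for Thy1, Ank3, Celf3, Gap43 and Tubb4a and below them for Elavl4.

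Among tubulins only Tubb4a passed (chr17:57080066-57087782). Tubb4a is a β-tubulin of mature neurons and of oligodendrocytes. It measured 36.2, 36.4 and 57.3 CPM in the GFP and 109, 82.9 and 87.6 CPM in the G392E-NS libraries. The groups did not overlap, with GFP replicate 3 above the other two. The means were 43.3 ± 12.1 and 93.1 ± 13.8 CPM (SD, n = 3 each), a log2 fold change of 1.10 ± 0.20 (SE; edgeR adjusted p = 0.0175). Without GFP replicate 1 or 2 the adjusted p was 0.0842 and 0.0699. Of the oligodendrocyte markers, Pdgfra, a receptor of the precursors, rose from 347 ± 77.9 to 751 ± 265 CPM (SD, n = 3 each; log2 fold change 1.12, edgeR adjusted p = 0.0435). Its part in the Tubb4a difference was not tested.

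Tubb3, the neuron-specific β-tubulin used as a general neuronal marker, measured 81.2, 92.8 and 145 CPM in the GFP and 125, 142 and 136 CPM in the G392E-NS libraries. The highest value belonged to GFP replicate 3, and the groups overlapped. Its log2 fold change was 0.33 ± 0.20 (SE; edgeR adjusted p = 0.364), which became 0.62 (adjusted p = 0.0369) without GFP replicate 3. Tubb2a and Tubb2b, whose reads cannot be fully separated, had close log2 fold changes of 0.24 ± 0.12 and 0.23 ± 0.16 (SE). The Tubb2a groups did not overlap, and those of Tubb2b did. The median of the 4 tubulins was 0.29.

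Of 9 microtubule-binding members tested, none passed with edgeR, DESeq2 or limma-voom, and at an unadjusted edgeR p under 0.05 1 was higher (Dclk1) and 1 lower (Map1a). Map1a passed with edgeR when the low-count filter was omitted (adjusted p = 0.0468). Map2, the dendritic microtubule-associated protein, measured 2604, 2804 and 2841 CPM in the GFP and 3087, 2466 and 2340 CPM in the G392E-NS libraries. G392E-NS replicate 1 was the highest of all and replicate 3 the lowest, so the groups overlapped on both sides (log2 fold change -0.06 ± 0.15 (SE), edgeR adjusted p = 0.843). Mapt, which encodes tau, measured 240, 258 and 292 CPM against 294, 256 and 314 CPM, again overlapping (log2 fold change 0.13 ± 0.12 (SE), edgeR adjusted p = 0.550). Map1a, a protein of mature neurites, had a log2 fold change of -0.51 ± 0.19 (SE; edgeR adjusted p = 0.165), which was -0.70 (adjusted p = 0.0486) without GFP replicate 3. Map1b, its counterpart in growing axons, had a value of 0.60 ± 0.31 (SE; edgeR adjusted p = 0.301). Exons of Map1a and Map2 overlap those of other genes.

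Dcx, the marker of migrating newborn neurons, measured 464, 452 and 618 CPM in the GFP and 783, 562 and 412 CPM in the G392E-NS libraries. The G392E-NS libraries spanned a wider range than the GFP libraries and held both the highest and the lowest value. The log2 fold change was 0.20 ± 0.23 (SE; edgeR adjusted p = 0.660). Its relative Dclk1, a doublecortin-like kinase, had a value of 0.54 ± 0.23 (SE; edgeR adjusted p = 0.216), which became 0.78 (adjusted p = 0.0241) without G392E-NS replicate 3.

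Stathmins bind free tubulin and promote microtubule turnover. Stmn1, Stmn3 and Stmn4 had log2 fold changes of 0.20 ± 0.14, 0.07 ± 0.15 and 0.45 ± 0.30 (SE), with edgeR adjusted p between 0.420 and 0.825. Stmn3 was the most abundant per length at 70.6 ± 8.52 RPKM in GFP libraries, against 9.21 ± 1.02 for Stmn1 and 8.51 ± 2.42 for Stmn4 (SD, n = 3 each). Stmn2, another neuronal stathmin, was almost absent. It had 0, 6 and 6 reads in the GFP and 0, 2 and 0 reads in the G392E-NS libraries, 14 in all, and so stayed under the minimum of 30.

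Kinesins showed no call with edgeR, DESeq2 or limma-voom, with 1 of 3 higher at an unadjusted edgeR p under 0.05. Kif5a, a neuronal heavy chain of kinesin-1, had a log2 fold change of 0.50 ± 0.16 (SE; edgeR adjusted p = 0.117), and Kif5c, another, 0.37 ± 0.22 (SE; edgeR adjusted p = 0.353). Kif1a, the kinesin-3 motor of synaptic vesicle precursors, averaged 614 ± 3.53 CPM in the GFP and 653 ± 41.7 CPM in the G392E-NS libraries (SD, n = 3 each), which did not overlap although the log2 fold change was only 0.09 ± 0.10 (SE; edgeR adjusted p = 0.645).

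RNA-binding members moved in both directions, with 1 of 6 higher, 1 lower and a median log2 fold change of -0.08. Elavl4 (HuD), which stabilises transcripts of outgrowing neurons, was the member that fell (chr4:110203722-110351909). It measured 108, 107 and 111 CPM in the GFP and 81.3, 61.9 and 57.3 CPM in the G392E-NS libraries. All G392E-NS libraries lay below the narrow GFP range. The means were 108 ± 1.94 and 66.8 ± 12.7 CPM (SD, n = 3 each), a log2 fold change of -0.70 ± 0.13 (SE; edgeR adjusted p = 0.0228). Without GFP replicate 1, 2 or 3 the adjusted p was 0.0929, 0.0807 and 0.0657, and without G392E-NS replicate 2 or 3 it was 0.0674 and 0.0510. Of the 6 neuron-defining markers tested, 4 were above 0 and 2 below, with a median log2 fold change of 0.60, and 1 passed the test. Snap25, Syt1, Nefm and Nefh, of synaptic vesicle release and neurofilaments, had values of 0.47, 0.88, 0.94 and 0.73 (edgeR adjusted p of 0.177, 0.0640, 0.108 and 0.663). The marker that passed was Gad1, of GABAergic neurons, which fell from 106 ± 2.75 to 67.1 ± 6.76 CPM (SD, n = 3 each; log2 fold change -0.65 ± 0.10 (SE), edgeR adjusted p = 0.00855). The part of these neurons in the Elavl4 difference was not tested.

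Elavl3 (HuC), made by most neurons, measured 84.2, 87.9 and 121 CPM in the GFP and 122, 93.6 and 83.2 CPM in the G392E-NS libraries. The groups covered nearly the same range, with a log2 fold change of 0.03 ± 0.18 (SE; edgeR adjusted p = 0.951) whose sign turned under several alternatives. Elavl2 (HuB) had a value of -0.39 ± 0.25 (SE; edgeR adjusted p = 0.398). Rbfox3, which encodes the NeuN antigen of postmitotic neurons, measured 20.8, 23.2 and 23.1 CPM against 20.8, 16.8 and 21.5 CPM. These values overlapped, with a log2 fold change of -0.19 ± 0.13 (SE; edgeR adjusted p = 0.426). Rbfox1, a splicing factor of mature neurons, had 5, 7 and 5 reads in the GFP and 5, 3 and 1 reads in the G392E-NS libraries, 26 in all, and was not tested.

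Celf3, a splicing regulator largely restricted to the nervous system, rose (chr3:94478295-94492198). It measured 5.18, 5.12 and 5.95 CPM in the GFP and 15.2, 11.4 and 9.06 CPM in the G392E-NS libraries. All G392E-NS libraries lay above all GFP libraries. Its log2 fold change was 1.14 ± 0.21 (SE; edgeR adjusted p = 0.0215), and without GFP replicate 1, 2 or 3 the adjusted p was 0.0999, 0.0923 and 0.0503. Celf4, its relative, had a log2 fold change of 0.17 ± 0.20 (SE; edgeR adjusted p = 0.649). Exons of Celf3 overlap those of Riiad1.

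Secretory granule proteins gave no call with edgeR (0 of 4 at an unadjusted p under 0.05) or limma-voom. The granins Chga, Chgb and Scg2 and the granule protein Scg3 had log2 fold changes between -0.12 and 0.23. Scg5 (7B2), the chaperone of prohormone convertase 2, had too few reads for the test, with 4, 1 and 3 reads in the GFP and 26, 50 and 4 reads in the G392E-NS libraries. G392E-NS replicate 3 equalled the highest GFP library in reads. Without the low-count filter its log2 fold change was 3.10 (edgeR adjusted p = 0.00328), and DESeq2 gave 3.12 (adjusted p = 0.00951). Without GFP replicates 1, 2 and 3 in turn the edgeR adjusted p was 0.148, 0.196 and 0.141, and without G392E-NS replicate 3 it was 0.0250. Uchl1, the abundant neuronal ubiquitin hydrolase, had a log2 fold change of 0.16 ± 0.13 (SE; edgeR adjusted p = 0.502).

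Among the transcription factors Tbr1, Fezf2 and Myt1l were scarce, whereas Bcl11b was not. Tbr1, a factor of early glutamatergic neurons, measured 0.806, 0.552 and 0.642 CPM in the GFP and 0.748, 0.679 and 0.261 CPM in the G392E-NS libraries. It overlapped, with a log2 fold change of -0.17 ± 0.40 (SE; edgeR adjusted p = 0.838). Fezf2, which specifies subcerebral projection neurons, had 3 reads over the 6 libraries, and Myt1l, a neuronal repressor of other fates, had 5, 6 and 15 reads against 5, 11 and 1 reads. Neither was tested. Bcl11b (Ctip2), expressed in subcerebral and in striatal and interneuron lineages, was well measured at 35.9 ± 8.35 and 46.5 ± 3.98 CPM (SD, n = 3 each; log2 fold change 0.37 ± 0.16 (SE), edgeR adjusted p = 0.231).

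Most members were highest in the same GFP library, whereas their lowest G392E-NS library was divided. GFP replicate 3 was the highest GFP library for 32 of 41 members (78.0%, against 39.7% of all genes tested), replicate 1 for 4 and replicate 2 for 5. Among G392E-NS libraries, replicate 3 was the lowest for 20 members (48.8%, against 36.7% of all genes tested), replicate 2 for 15 and replicate 1 for 6. The summed level of the members was 8937, 9016 and 10413 CPM in the GFP and 11692, 10046 and 10404 CPM in the G392E-NS libraries. GFP replicate 3 thus exceeded 2 of the 3 G392E-NS libraries.

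**Figure D4:**
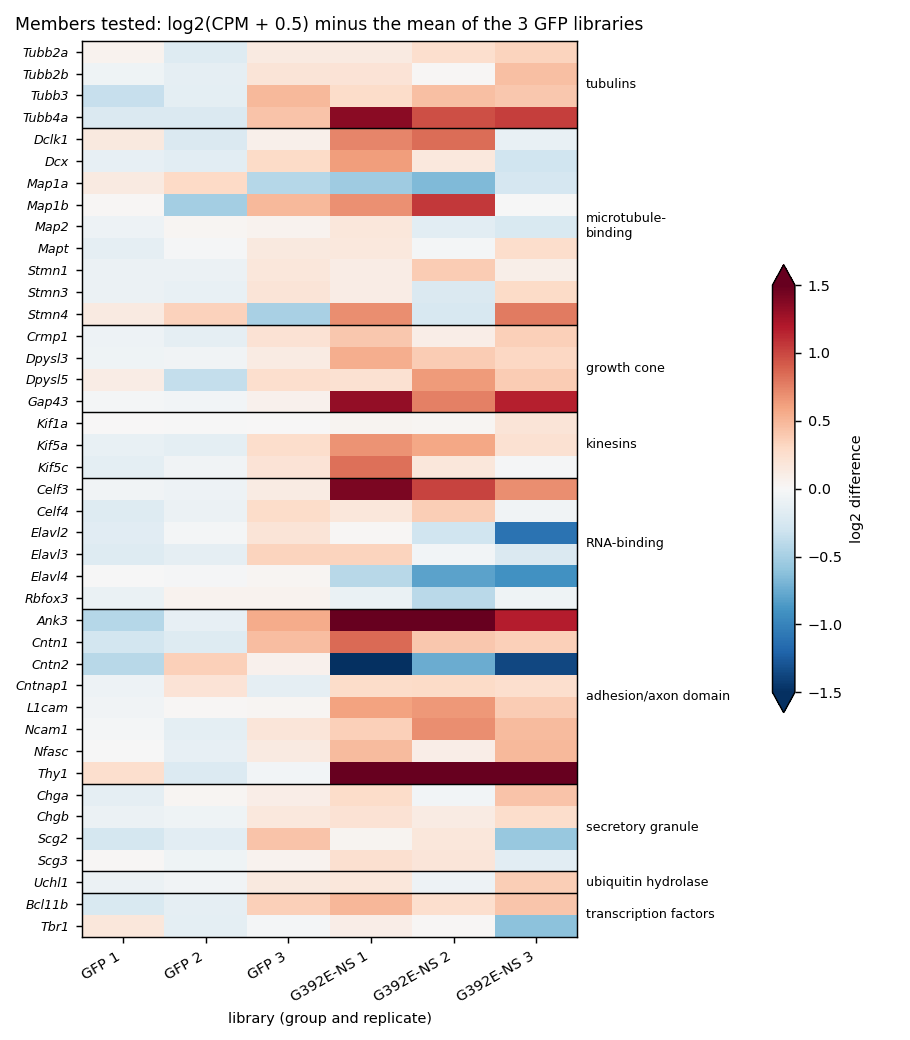
Each member tested (rows) in each library (columns), as log2(CPM + 0.5) minus the mean of the 3 GFP libraries, on a colour scale. GFP replicate 3 is the highest GFP library for 32 of the 41 members, and Thy1 is the row with the strongest colour in all 3 G392E-NS libraries.

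Newborn-neuron genes and mature neuron and axon genes were then set side by side. Of 8 newborn genes (Dcx, the 4 stathmins and the 3 Elavl genes) 7 were tested, 0 rose with edgeR, DESeq2 or limma-voom (0 at an unadjusted edgeR p under 0.05), and 1 fell, Elavl4 (over all genes tested, 4.79% rose and 1.36% fell). Of 16 mature and axon genes 15 were tested, 3 rose (Thy1, Ank3 and Tubb4a) and 0 fell with edgeR or limma-voom, with 2 lower at an unadjusted edgeR p under 0.05 and 1 with DESeq2. The fitted log2 fold changes had a median of 0.07 and a range of -0.70 to 0.45 in the newborn list, and a median of 0.31 and a range of -1.75 to 4.24 in the mature list. The mature list was thus not uniform: 11 of its genes were above 0 and 4 below. Those below were Cntn2 (-1.75), Map1a (-0.51), Rbfox3 (-0.19) and Map2 (-0.06). Cntn2, described above as the contactin of outgrowing axons, was counted in this mature and axon list and not among the newborn genes. No test of the difference between the lists was made. A wider newborn list, which adds Dclk1, Tubb3, Tubb2a, Tubb2b, Gap43, the collapsin response mediators, Map1b and Celf3, had 17 genes tested, of which 2 rose (Gap43 and Celf3) and 1 fell. In it 15 genes were above 0 and 2 below, and its median of 0.29 was close to the mature median.

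Library by library, the median log2 difference of the newborn genes from the GFP mean was -0.09, -0.08 and 0.19 in the GFP and 0.11, -0.22 and -0.21 in the G392E-NS libraries. Replicates 2 and 3 of G392E-NS thus lay below 0, while the median of the fitted values was above 0, and without G392E-NS replicate 1 the fitted median was -0.09. For the mature genes the medians were -0.10, -0.06 and 0.13 in the GFP and 0.28, 0.10 and 0.25 in the G392E-NS libraries. G392E-NS replicate 2 fell inside the GFP range, and without G392E-NS replicate 1 the fitted median was 0.14.

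The ratio of newborn to mature transcripts, from summed RPKM, was 0.395, 0.376 and 0.404 in the GFP and 0.367, 0.341 and 0.351 in the G392E-NS libraries. The means were 0.392 ± 0.0141 and 0.353 ± 0.0130 (SD, n = 3 each), without overlap and without a test. A few genes weighed heavily in both sums: Map2 held 38.9% of the mature sum in the GFP and 32.4% in the G392E-NS libraries, and Stmn3 and Dcx together held 65.5% and 69.2% of the newborn sum. Map2 averaged 167 ± 7.75 RPKM in the GFP and 160 ± 24.3 RPKM in the G392E-NS libraries (SD, n = 3 each). Cntn1 averaged 63.3 ± 18.6 and 90.7 ± 17.6 RPKM, and Tubb4a 19.4 ± 5.43 and 41.8 ± 6.19 RPKM. Cntn1 and Tubb4a are also made by glial precursors and oligodendrocytes, whose part in the ratio was not tested. Of the mature genes tested, 11 had fitted log2 fold changes above 0 and 4 below. Without Map2, an alternative chosen after seeing the data, the ratio was 0.641 ± 0.0105 and 0.523 ± 0.0313 (SD, n = 3 each). From summed CPM, where long transcripts count more, it was 0.190 ± 0.0168 and 0.185 ± 0.0269 (SD, n = 3 each) and the groups overlapped.

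**Figure D5:**
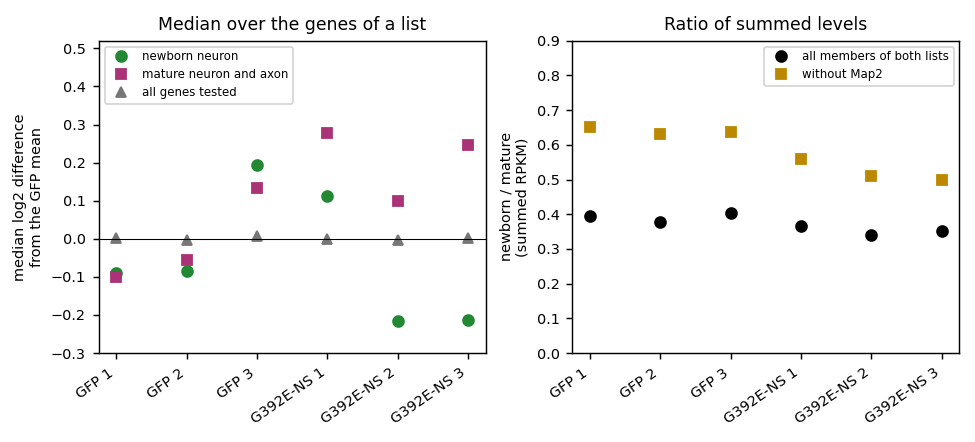
Left, the median log2 difference from the GFP mean over the newborn genes, the mature and axon genes and all genes tested, in each library. Right, the ratio of summed newborn to summed mature RPKM in each library, with and without Map2; the 3 GFP libraries lie above the 3 G392E-NS libraries in both versions.

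Genes related to the members but not on the list were counted by role. Of 11 other tubulins tested, 2 rose: Tubg2, a γ-tubulin of the microtubule-nucleating complex, with a log2 fold change of 2.74 ± 0.32 (SE; edgeR adjusted p = 0.00324), and the α-tubulin Tuba4a with 2.30 ± 0.45 (SE; edgeR adjusted p = 0.0250). Their median was -0.03. Of 26 other microtubule-binding proteins, 1 rose, Camsap3, which caps microtubule minus ends (1.06, edgeR adjusted p = 0.0480). Of 10 other growth cone proteins, a list that also holds the radial glial lipid carrier Fabp7, 1 fell, the actin-binding Cap2 (-0.51, edgeR adjusted p = 0.0454). None of 17 other kinesin and dynein genes passed with edgeR or limma-voom (2 lower and 0 higher at an unadjusted edgeR p under 0.05, 1 lower with DESeq2), the nearest being Kif21a (-0.34, edgeR adjusted p = 0.0840).

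Of 16 other neuronal RNA-binding proteins, Celf5, a relative of Celf3, rose (0.77, edgeR adjusted p = 0.0369) and the splicing factor Khdrbs3 fell (-0.49, edgeR adjusted p = 0.0361). Of 14 other adhesion and scaffold genes, 1 rose: Sptbn4, the βIV-spectrin that binds ankyrin-G at the axon initial segment, from 0.389 ± 0.132 to 1.17 ± 0.314 CPM (SD, n = 3 each; log2 fold change 1.54 ± 0.37 (SE), edgeR adjusted p = 0.0485). Of 7 other granule genes, Pcsk1n, a prohormone convertase inhibitor, rose (1.55 ± 0.35 (SE), edgeR adjusted p = 0.0409). Among 7 genes of the REST complex, which represses neuronal genes outside neurons, none passed with edgeR or limma-voom (1 higher and 1 lower at an unadjusted edgeR p under 0.05, 1 higher with DESeq2), and Rest itself averaged 50.9 ± 4.53 and 46.7 ± 9.07 CPM (SD, n = 3 each). These lists gave 8 genes that passed of 108 tested (7.41%, against 6.15% of all genes tested that passed in either direction), a share near that of all genes, and 1 when GFP replicate 1 or 2 was omitted.

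RefSeq promoter sequences (GRCm38.p6, 250 bases before to 50 after each gene start) were matched for 33 of the 46 genes. Thy1, Gap43 and Ank3 are among the 13 not matched. On both strands 4 short motifs were searched, the cyclic AMP response element (TGACGTCA), an E-box (CAGCTG), the TATA box (TATAAA) and the GC box (GGGCGG). The response element was held by 5 of 33 members (15.2%, against 2.03% of 27025 genes), the E-box by 10 (30.3% against 18.3%), the TATA box by 9 (27.3% against 15.7%) and the GC box by 19 (57.6% against 38.2%). Counted by gene, all 4 motifs were thus more frequent among the members. The 27025 genes were not limited to those tested in these libraries, and no share over tested genes was computed. The 5 stretches with the response element are shown because the members' share was the largest multiple of the share of all genes for this motif. A gene can have several starts: the 33 members had 60 windows and the 27025 genes 32851, so a member had more chances to hold a motif. Counted over windows, the shares for the response element were 11.7% for the members and 1.79% for all genes. For the E-box they were 26.7% and 16.3%, for the TATA box 18.3% and 13.6%, and for the GC box 45% and 35.7%. Each line gives 30 bases upstream of a RefSeq start, with the motif in capitals. The stretches of Celf3, Chgb and Scg2 lie inside the GENCODE M21 gene spans, because the RefSeq start used lies downstream of the GENCODE start.
Celf3, chr3:94484208-94484237, plus strand: ggcagaagtgaTGACGTCAccacggtcgcc
Chgb, chr2:132781559-132781588, plus strand: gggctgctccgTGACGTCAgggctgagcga
Kif5c, chr2:49619249-49619278, plus strand: gatctctgcagTGACGTCAccgtgccgagg
Scg2, chr1:79440076-79440105, minus strand: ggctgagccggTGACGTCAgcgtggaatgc
Tubb2a, chr13:34078049-34078078, minus strand: ctctgcccccaTGACGTCAgcgggactggg
Of these 5 genes Celf3 rose and the other 4 did not pass the test, with log2 fold changes of 0.21 for Chgb, 0.37 for Kif5c, -0.12 for Scg2 and 0.24 for Tubb2a. A match describes the letters only and shows no binding.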

How the data were processed

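Total RNA of 6 samples, 3 in each of 2 groups, was sequenced. Its table of gene counts, as deposited by the authors, is in whole numbers with no normalisation. The build GRCm38 and the tools R 3.2.2, DESeq2 1.4.5, HTSeq 0.6.1 and TopHat2 2.0.12 appear in the submitters' processing notes without roles; the labels do not give annotation or strand setting. Symbols, positions and exon lengths came from GENCODE M21 (37693 of 39179 genes). Counts were tested with edgeR 4.0.16 (R 4.3.3; filterByExpr, TMM, quasi-likelihood test, Benjamini-Hochberg adjustment over 13775 genes, threshold 0.05) without covariates. On simulated data false calls exceeded the threshold's rate, most with DESeq2. limma 3.58.1 (voom), DESeq2 1.42.0, other scalings and filters, a replicate block and omission of each library were alternatives. Pairs of replicates differed by 8.02 to 56.4 times sampling noise (chi-square per degree of freedom), so none was a duplicate. Low-count members are limited by depth.

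The members and lists were chosen with earlier results of these data known. Values in every library are given for members that passed and for Dcx, Map2, Tubb3, Rbfox3, Stmn2, Elavl3, Elavl4, Mapt, Gap43 and Tbr1; in related lists, up to 3 genes that passed or else the nearest are named. Other genes were chosen after their values were seen. Some items are not reported here.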

Additional observations from a re-analysis of the deposited data

How the results depend on the processing

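With DESeq2, 6.68% of genes rose in G392E-NS cells and 2.14% fell (1098 and 352 genes), and 5.20% and 1.61% without the low-count filter (1205 and 374), against 4.79% and 1.36% (660 and 187). When 1 library was left out the shares were 1.38% to 7.04% and 0.324% to 2.81%. Members higher numbered 8 with DESeq2 and 2 to 7 when 1 library was left out, and members lower 2 with DESeq2, 3 without the low-count filter and 0 to 1 when 1 library was left out, against 5 and 1. Related genes past the threshold numbered 15 with DESeq2, 5 with limma-voom and 1 to 12 when 1 library was left out, against 8. With the replicate block 1.58% and 0.363% of genes (217 and 50) were higher and lower, with 2 members higher, 0 lower and 2 related genes. Under that replicate block Ank3, Celf3, Elavl4 and Tubb4a lost their call (edgeR adjusted p of 0.116, 0.0853, 0.0665 and 0.0551). Whether the replicate numbers pair the samples is not known. Deviations of same-numbered libraries from their group means correlated at 0.03, -0.38 and -0.25, and not every library correlated best with its own number. With 3 libraries per group, such correlations cannot decide whether the samples were paired. The newborn median was 0.29 with a wider newborn list and -0.0889 to 0.2113 when 1 library was left out, against 0.07. The mature median was 0.14 to 0.31 when 1 library was left out, lowest without G392E-NS replicate 1. The log2 ratio of newborn to mature sums was -0.033 from sums of CPM and -0.29 without Map2, and -0.18 to -0.13 when 1 library was left out, against -0.15. The fitted difference changed sign in 6 members, none of them called, when single libraries were omitted: log2 fold changes ran from -0.212 to 0.0139 for Map2, -0.0889 to 0.3966 for Dcx, -0.4306 to 0.1062 for Tbr1, -0.0505 to 0.2024 for Stmn3, -0.1651 to 0.2113 for Elavl3 and -0.2688 to 0.1372 for Scg2. Elavl3 was also -0.0336 with total counts only. The cause was not tested. Over members and alternatives, 535 values kept direction and side of the threshold, 17 lost a call, 11 gained one and 10 changed sign. Depth limits Stmn2, Rbfox1, Fezf2, Scg5 and Myt1l, which had too few reads for the test.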
